A study of Drosophila melanogaster with 2 samples.

Results

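Of the 5163 regions in the larger of 2 peak sets called over both replicates for the fly transcription factor E2f1, 987 (19.1%, exact 95% interval 18.05 to 20.2) overlapped no region of the conservative set by 1 bp or more, and these gained regions are described here. They were selected on calls made from the same libraries: they passed the authors' threshold in the larger set and failed to overlap anything that passed it in the conservative one. The other 4176 regions of the larger set did overlap a conservative region and are called shared. Counts are for the chromosomes 2L, 2R, 3L, 3R, 4 and X, and 4 more gained regions lay on other sequences. The chromatin came from whole Drosophila melanogaster embryos aged 0 to 24 hours of a strain with an inserted transgene that encodes E2f1 joined to eGFP, a green fluorescent protein. It was sonicated to fragments of 200 to 800 bp, and ChIP-seq with an antibody to GFP was run in 2 biological replicates of 1 group, with both replicates from the same strain. There was no second condition or stage, whole embryos mix all cell types and ages, and the data of the control experiment that the labels name as possible are not used here. The fusion protein is made from a transgene, and whether the fly's own E2f1 gene was intact is not stated in the labels.

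E2F1 binds DNA together with its partner Dp, and in flies E2f1 is the activating member of the family, while E2f2 represses. Their known targets are genes for DNA synthesis and the G1 to S step of the cell cycle, and the retinoblastoma protein Rbf holds E2f1 in check until cyclin E and its kinase release it. In the first hours fly embryos divide without transcription of most genes, and later many tissues stop dividing or switch to cycles of replication without division, so a library from whole embryos averages over dividing and resting cells.

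The printed sequences are all from outside the right arm of chromosome 2. They are the 4 gained regions there with the highest peaks, and the 6 gained promoter regions of listed genes there whose E2F site lies nearest to the summit, the base with the most signal. They were read from the RefSeq genome of the same build (dm6, plus strand, 5′ to 3′). Windows that hold annotated UTR are cut to 29 bases, centred on the site or, where there is none, on the summit, and the others are 101 bases centred on the summit. Capitals mark E2F sites on either strand, searched as TTCCCGC, and also as TTCGCGC, and further as TTGCCGC, and finally as TTGGCGC. The windows are chrX:16359142-16359170 (PIG-Q), chr3R:24567500-24567600 (REPTOR), chr3L:11696597-11696697 (Dph1), chrX:7920232-7920332 (Ykt6), chrX:5323839-5323867 (Mcm3), chrX:801269-801297 (Rbf), chr2L:18682014-18682042 (tos), chrX:13668002-13668030 (DNAlig4), chr2L:2969622-2969650 (Ts) and chr3L:16050818-16050846 (Diap1).
PIG-Q: acatacatacataaaaatacacgcttaag
REPTOR: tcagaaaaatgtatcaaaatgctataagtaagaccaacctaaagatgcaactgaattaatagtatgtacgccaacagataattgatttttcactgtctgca
Dph1: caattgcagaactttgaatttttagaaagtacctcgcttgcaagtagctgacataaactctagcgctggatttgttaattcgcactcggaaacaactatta
Ykt6: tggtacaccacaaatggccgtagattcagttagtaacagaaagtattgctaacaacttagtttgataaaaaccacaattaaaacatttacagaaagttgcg
Mcm3: acactacgcttTTCCCGCgaaaaaacttt
Rbf: ccatggaaaacGCGGGAAacttgactagt
tos: tgcggatcttaGCGCCAAaattgccaatg
DNAlig4: taaccaaaaagGCGGCAAatcgtttgttt
Ts: ctcgaaaattgGCGGGAAttagttattgc
Diap1: gaaatagttttTTGCCGCccaagcgatgc
None of the regions at PIG-Q, REPTOR, Dph1 and Ykt6 had an E2F site within 50 bp of the summit. The Ts region had 2 sites within that distance, of which the one nearer to the summit is shown, and each of the other 5 had 1.

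The gained regions were the low part of the larger set and were uneven between the replicates. Their peak height, a deposited score that no source says was scaled between the libraries, had a median of 66.9 with quartiles of 59.6 and 78.8 and a maximum of 328.8, against a median of 118.3 with quartiles of 85.0 and 195.1 in shared regions. The lowest height was 2.01 in gained and 2.02 in shared regions, and 98 gained and 211 shared regions lay under a height of 40. The width was 344 bp in 979 gained regions. Gained regions also overlapped each other: 179 of the 987 shared at least 1 bp with another region of the larger set, among them 92 of the 98 under a height of 40, and merging the gained regions that overlap left 898. Of the 987, 118 had their summit within 1000 bp of a conservative summit and 357 were more than 10000 bp from one.

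The rule rests on IDR, the irreproducible discovery rate, which estimates how likely a region is to be noise from how its rank agrees between 2 inputs. All regions of the larger set had an IDR of 0.01 or lower in that set's own ranked list, which is a −log10 of 2 or more. The 3 gained regions nearest to this limit had −log10 values of 2.00081, 2.00128 and 2.00176. Among candidates that overlap no conservative region, the 3 just outside the limit had 1.99985, 1.99890 and 1.99842. The conservative set came from the list that compares replicate 1 with replicate 2. The 3 gained regions nearest to passing there, at −log10 values of 1.99725, 1.99681 and 1.99638, were near lncRNA:CR45036, CG8187 and Ser. In that list 418 of the gained regions had an IDR of 0.01 to 0.05, 214 had 0.05 to 0.5, 261 had over 0.5 and 94 had no row.

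Gained regions were more often in the set called for replicate 1 alone than in that for replicate 2 alone. Each replicate has its own thresholded set and its own longer ranked list. The set of replicate 1 held 42.5% of gained regions (419 of 987) and 73.6% of shared regions, with 67.7% of the larger set as a whole. The set of replicate 2 held 17.1% of gained regions (169) and 71.5% of shared ones, with 61.1% of the larger set as a whole. Split by these sets, 405 gained regions were in that of replicate 1 only, 155 in that of replicate 2 only, 14 in both and 413 (41.8%) in neither, while 14.2% of shared regions were in neither. These shares come from the libraries that chose the regions, so they describe the choice and were not tested.

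**Figure D1:**
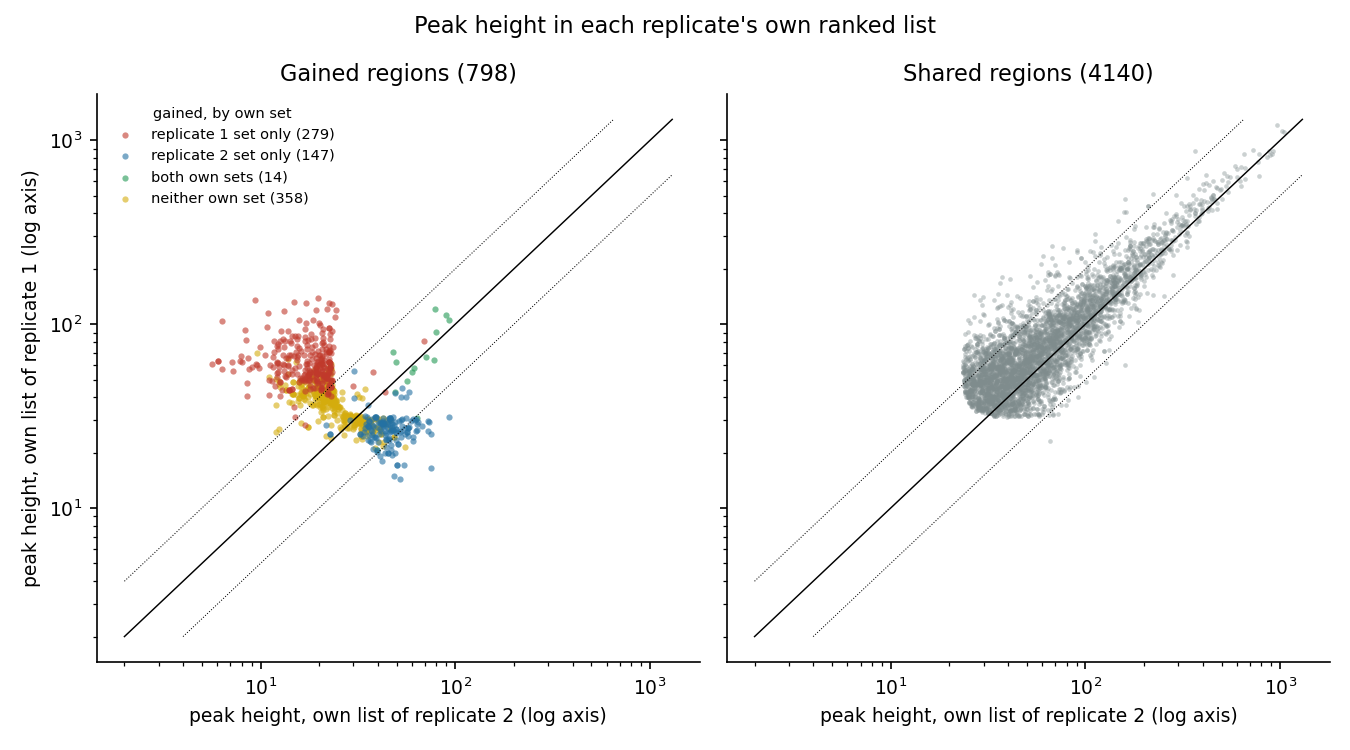
Peak height in the own ranked list of replicate 1 (vertical, log axis) against that of replicate 2 (horizontal, log axis) for the 798 gained regions (left, coloured by own set) and the 4140 shared regions (right) with a candidate in both lists; each point is a region, the solid line marks equal heights and the dotted lines a 2-fold difference. Of the 279 regions in the set of replicate 1 only, 278 lie above the line, and those in the set of replicate 2 only lie mostly below it. Of all regions plotted, 70.3% of gained and 76.5% of shared ones lie above it.

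The heights in the own lists were taken as the highest candidate that overlaps a region. The own sets were cut from these lists, and many inputs of the list behind the conservative set recur in them, so these heights describe the choice too and are no further evidence of the split. A candidate was present for 967 gained regions in the list of replicate 1 and for 817 in that of replicate 2, and 169 gained regions had one in the list of replicate 1 only and 19 in that of replicate 2 only. The median height of gained regions was 44.7 in replicate 1 and 22.4 in replicate 2, and that of shared regions was 69.3 in replicate 1 and 54.5 in replicate 2. Over the 798 gained regions in both lists, the median log2 ratio of replicate 1 to replicate 2 was 0.98, against 0.30 over 4140 shared regions. Replicate 1 was at least 2-fold higher for 49.2% of these gained regions (393) and 9.73% of shared ones, and replicate 2 was for 5.76% (46) of gained and 0.338% of shared ones. The median log2 ratio was 1.73 for regions in the set of replicate 1 only, -0.75 for those in the set of replicate 2 only, -0.09 for those in both and 0.78 for those in neither. Regions that overlap each other can carry the same candidates, so 1 pair of heights can enter these medians and counts more than once. At Dscam1, regions with heights of 86.4 and 2.01 in the larger set both had 56.8 in replicate 1 and 23.1 in replicate 2.

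Of the 12 highest gained regions, 9 had no candidate in the own list of replicate 2. A missing candidate gives no height, so it does not show that the signal of replicate 2 was low there. At these regions the height in the larger set was well above that in replicate 1. At cdm, with candidates in both lists, the height was 153.2 in the larger set, 131.1 in replicate 1 and 22.4 in replicate 2. The region at PIG-Q, named for an enzyme of GPI anchor synthesis, had a height of 328.8 in the larger set and of 198.4 in the list of replicate 1, and no candidate in that of replicate 2. The same absence in replicate 2 held for the regions nearest to REPTOR, a transcription factor of nutrient signalling (252.6 in the larger set, 146.9 in replicate 1), Drat (239.7, 154.6), Dph1, an enzyme of diphthamide synthesis (238.8, 150.1), and Ykt6, a SNARE of membrane fusion (199.1, 112.4). It held as well for BubR1, a kinase of the spindle checkpoint (172.2, 98.4), tai, a coactivator of the ecdysone receptor (171.1, 88.4), Unr, an RNA-binding protein (170.1, 93.7), and CG7744 (158.5, 105.0). The other 3 of the 12 highest had candidates in both lists. The region near dar1, a Krüppel-like factor of dendrite growth, was in both own sets, with heights of 105.5 in replicate 1 and 92.8 in replicate 2. The regions near cdm, an importin (131.1 in replicate 1, 22.4 in replicate 2), and Ndfip (138.4, 19.7) were in the set of replicate 1 only. The regions near PIG-Q, REPTOR, Drat and Dph1 were narrower than the common width, and widths under 344 bp were found for 8 gained regions in all.

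Gained and shared regions lay at promoters to a like extent, while gained summits were more often in coding exons. A promoter summit is one at most 500 bp from the start of a transcript (TSS), and each other summit was given 1 class, with UTRs and coding exons ahead of introns and those ahead of intergenic sequence. Promoters held 45.9% of gained summits (453 of 987) and 46.7% of shared ones (1952 of 4176), against 13.6% of the genome; the odds ratio was 0.967 (exact 95% interval 0.839 to 1.11, adjusted p = 0.821). Introns held 36.4% of gained and 36.5% of shared summits (odds ratio 0.993, exact interval 0.857 to 1.15, adjusted p = 0.941). Intergenic sequence held 13.3% of gained and 14.2% of shared summits (odds ratio 0.928, exact interval 0.751 to 1.14, adjusted p = 0.821). Coding exons held 22 gained summits (2.23%) and 18 shared ones (0.431%), an odds ratio of 5.27 (interval 2.68 to 10.46, Fisher's exact test, adjusted p = 2.916e-06), and in both the share was below the 13.7% of the genome. All are Fisher's exact tests, two-sided, with Benjamini-Hochberg adjustment over the 7 classes. Regions share 2 libraries and are no replicates, so these p-values and intervals cover counting error only. At a stricter IDR of 0.001, 1 of 201 gained regions was in a coding exon and the call was lost (odds ratio 2.04, Fisher's exact test, adjusted p = 0.484). In the own set of replicate 1, split by overlap with the conservative set, the odds ratio was 3.01 (Fisher's exact test, adjusted p = 0.0583). Of the 22 gained summits in coding exons, 15 were in neither own set, 5 in that of replicate 1 only and 2 in that of replicate 2 only.

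By own set, the promoter shares of gained regions lay apart. Of the gained regions in the set of replicate 1 only, 57.5% were at promoters (233 of 405, interval 52.6 to 62.4). In the set of replicate 2 only it was 32.3% (50 of 155, interval 24.98 to 40.2), and 51.6% of those lay in introns. In both sets it was 9 of 14, and in neither set 39.0% (161 of 413, interval 34.2 to 43.9), with 46.7% in shared regions. When all regions of 1 replicate's own set were split by overlap with the conservative set, the odds ratio for promoters was 1.34 in replicate 1 (adjusted p = 0.00634) and 0.594 in replicate 2 (adjusted p = 0.000140), by Fisher's exact test. The side of the TSS was also recorded. Of gained promoter summits 63.6% were at or upstream of the nearest TSS (288 of 453, interval 59.0 to 68.0), with quartiles of position at -135 and 40 bp. Of shared promoter summits it was 79.6% (interval 77.7 to 81.3), with quartiles at -190.2 and -22 bp. It was 59.2% in the set of replicate 1 only (median -23 bp) and 84% in the set of replicate 2 only (median -129.5 bp). These shares by own set were not tested against each other. Only the promoter share of the regions in neither set was compared with that of shared regions, as given with the alternatives below.

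**Figure D2:**
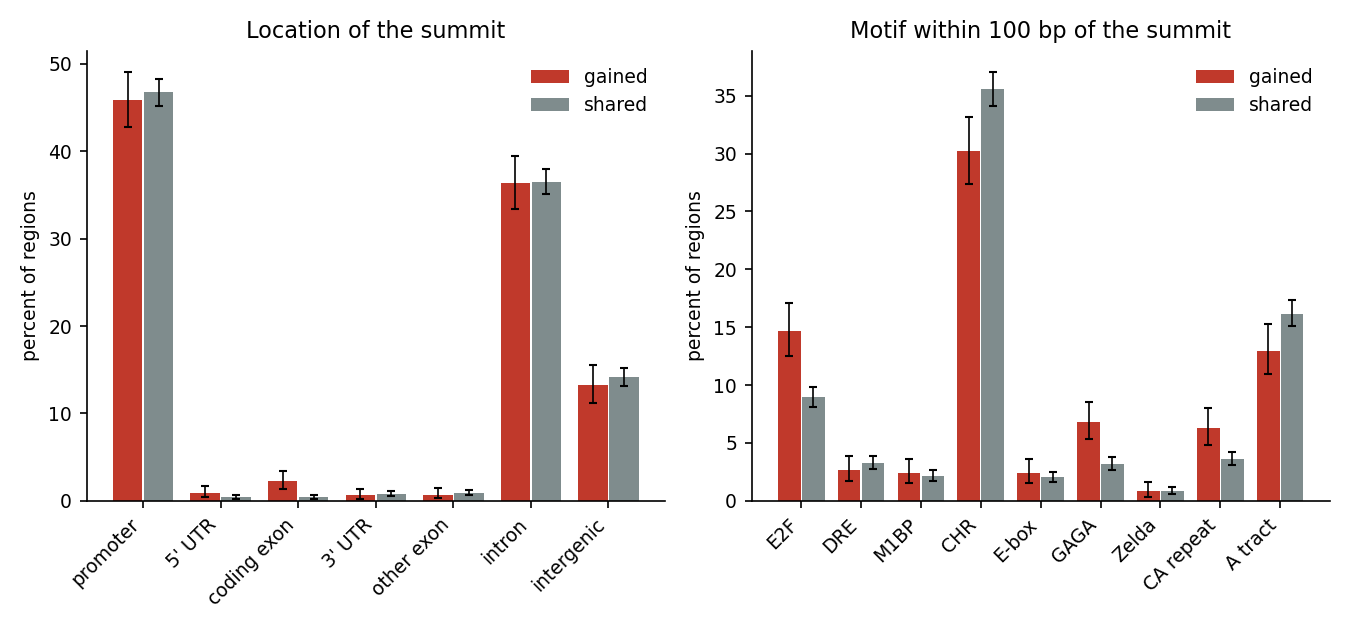
Percent of the 987 gained and 4176 shared regions by location of the summit (left) and with each motif within 100 bp of the summit (right); bars are shares and error bars exact 95% intervals of counting error. Promoter and intron shares are close, while coding exons, E2F sites and GAGA repeats are more frequent in gained regions.

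E2F sites were more frequent at gained than at shared summits, and this difference went with GC content. A site lay within 100 bp of the summit in 14.7% of gained regions (145 of 987, interval 12.5 to 17.1) and 8.96% of shared ones (374 of 4176, interval 8.11 to 9.86), with 10.1% over the whole larger set. The odds ratio was 1.75 (interval 1.41 to 2.16, Fisher's exact test, two-sided, adjusted p = 2.348e-06 over 9 motifs). Windows of the same length 500 bp away held a site in 8.82% of cases around gained summits and 11.0% around shared ones, tiles over the genome in 8.69%, and windows at TSSs of coding genes in 11.3%. The windows at gained summits had a median GC content of 40.3%, against 34.8% at shared summits, while the flanking windows had 41.8% around gained and 43.3% around shared summits. With GC content as a covariate in a logistic regression over n = 5163 regions, added after the data were seen, the odds ratio was 1.03 (interval 0.822 to 1.29, adjusted p = 0.808), so the difference was no longer called. At windows of 35 to 45% GC a site was present in 15.1% of gained regions (56 of 372) and 12.4% of shared ones (187 of 1513), and at 45% or more in 22.3% of gained (74 of 332) and 25.4% of shared ones (133 of 524). Under 35% GC it was 5.30% of gained regions (15 of 283) and 2.52% of shared ones (54 of 2139). Each of the 4 forms was in a larger share of gained than of shared regions, among them TTCCCGC, in 3.75% of gained and 1.84% of shared regions.

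Among the gained regions, E2F sites were frequent in those of the set of replicate 1 only and rare in those of the set of replicate 2 only. In the set of replicate 1 only 20.5% had a site (83 of 405, interval 16.7 to 24.8), in that of replicate 2 only 2.58% (4 of 155, interval 0.708 to 6.47), in both 3 of 14 and in neither 13.3% (55 of 413, interval 10.2 to 16.98). The GC content of the windows moved with these shares, with medians of 42.8%, 34.3%, 35.8% and 41.3% in the same order. Within 35 to 45% GC the shares were 17.9% in the set of replicate 1 only (30 of 168), 6.38% in that of replicate 2 only (3 of 47) and 13.8% in neither (21 of 152). At 45% GC or more they were 30.4% (49 of 161), 0 of 17, with an upper bound of 19.5%, and 16.6% (25 of 151). Under 35% GC they were 5.26% (4 of 76), 1.10% (1 of 91) and 8.18% (9 of 110), so there the regions in neither set had the largest share. This band held 58.7% of the regions in the set of replicate 2 only. The difference between these groups was not tested. All regions of 1 replicate's own set were also split by overlap with the conservative set, which rests on both replicates. The odds ratio for E2F sites was 0.552 in the set of replicate 2 (adjusted p = 0.325) and 2.23 in that of replicate 1 (adjusted p = 3.536e-10), by Fisher's exact test.

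**Figure D3:**
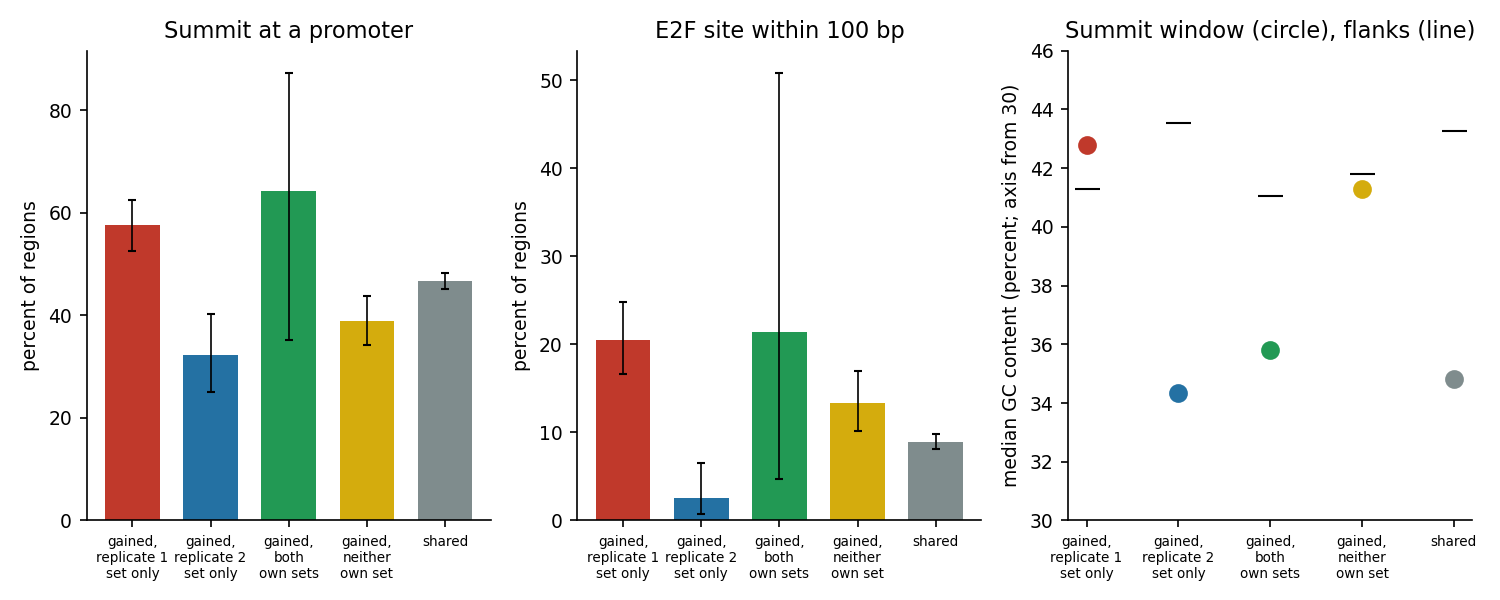
Percent of regions with a promoter summit (left), percent with an E2F site within 100 bp (middle; error bars are exact 95% intervals) and median GC content (right, axis from 30%) for the gained regions by own set and for the shared regions; in the right panel circles are summit windows and lines the flanking windows. Regions in the set of replicate 1 only are highest in GC content at the summit and those in the set of replicate 2 only have the fewest sites.

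The ratio of the replicates uses the heights of the lists from which the own sets were cut. Groups by this ratio thus restate the split by own set in finer steps and are no second result. In 4 groups of 199 or 200 regions by the log2 ratio of replicate 1 to replicate 2, lowest first, an E2F site was present in 5.50%, 14.1%, 15.6% and 25% of regions, and the median GC content was 34.6%, 40.3%, 43.3% and 43.8%. Promoter summits made up 32%, 33.2%, 52.8% and 60% of these groups. The 169 regions with a candidate in the list of replicate 1 only had a site in 14.8% and a median GC content of 39.8%, and the 19 with one in that of replicate 2 only had none. Around the summits of the regions in the set of replicate 1 only, 6.91% had a site centre within 25 bp (28 of 405, interval 4.64 to 9.84) and 1.23% had one at 175 to 200 bp (interval 0.402 to 2.86). In shared regions the share was 2.27% within 25 bp and 3.33% at 175 to 200 bp.

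**Figure D4:**
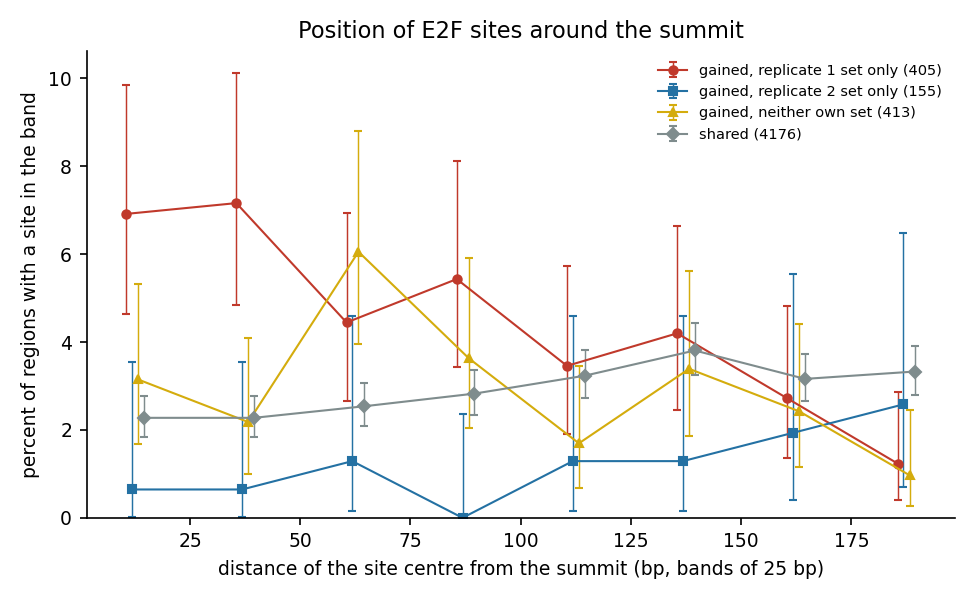
Percent of regions with an E2F site centre in each band of 25 bp from the summit (vertical) against the distance from the summit in bp (horizontal), for gained regions in the set of replicate 1 only, of replicate 2 only and of neither, and for shared regions; error bars are exact 95% intervals and the 14 gained regions in both own sets are left out. In the first group the share is 6.91% nearest to the summit and 1.23% in the farthest band, while in shared regions it is 2.27% and 3.33%.

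Of the other 8 motifs, 4 passed the same test before GC content was taken into account. GAGA repeats (GAGAGAG), bound by the GAGA factor Trl, were in 6.79% of gained and 3.21% of shared windows (odds ratio 2.20, Fisher's exact test, adjusted p = 4.252e-06). With GC content as a covariate, over n = 5163 regions, the odds ratio was 1.59 (interval 1.16 to 2.19, adjusted p = 0.0373). By own set they were in 10.4% of regions in that of replicate 1 only, 2.58% in that of replicate 2 only and 4.60% in neither. CA repeats (CACACACA) were in 6.28% of gained and 3.64% of shared windows (odds ratio 1.77, exact test, adjusted p = 0.00107). The cell cycle homology region (TTTGAA or TTCGAA), a site of the MuvB complex, was in 30.2% of gained and 35.6% of shared windows (odds ratio 0.784, exact test, adjusted p = 0.00308), and A tracts (AAAAAAAA) were in 12.97% of gained and 16.2% of shared ones (odds ratio 0.773, exact test, adjusted p = 0.0229). With GC content as a covariate none of these 3 was called, with adjusted p-values from 0.795 to 0.808. Windows 500 bp away held CA repeats in 6.33% of cases around gained and 6.94% around shared summits. Gained summits were thus close to their flanks in CA repeats, and shared summits lay below theirs. The flanks held GAGA repeats in 3.546% around gained and 4.765% around shared summits. For the cell cycle homology region it was 26.65% and 24.47%, and for A tracts 11.96% and 12.14%, in the same order. The DNA replication-related element (TATCGATA), bound by Dref, was in 2.63% of gained and 3.28% of shared windows (odds ratio 0.798, exact interval 0.5002 to 1.23, adjusted p = 0.543). Motif 1 (GGTCACAC), the E-box (CACGTG) and the Zelda motif (CAGGTAG) had adjusted p-values from 0.591 to 1. Apart from the logistic regressions with GC content, all these tests were two-sided Fisher's exact tests. All forms were searched on both strands, and the tracts and repeats can overlap other motifs.

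A gained summit alone marked 430 of 13945 protein-coding genes (3.08%), in that a gained summit and no shared one lay within 500 bp of a TSS. Of the 11621 genes without a shared summit this is 3.70%, and 53 more genes had both kinds. An E2F site was in the window of 87 of the 430. Counted by region, a site was at 87 of 453 gained and 219 of 1952 shared promoter summits, and in 11.3% of windows at TSSs of coding genes. The summits of 211 of the 430 genes were in the set of replicate 1 only, of 57 in that of replicate 2 only and of 148 in neither. In the 19 gene lists, 41 genes had a gained summit only. The lists were chosen with results of these data known and get no test.

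Among genes without a shared summit, the repair and replication lists had the largest shares with a gained one. Over all genes of a list the shares with a gained summit only were 19.05% for repair, 15.4% for E2F, Rb and dREAM (2 of 13), 13.04% for chromatin assembly and 12.2% for replication, beside the 3.08% of all coding genes. High shares were not particular to gained summits. A shared summit was at 17 of 42 repair, 11 of 23 chromatin assembly and 28 of 49 replication genes, beside 2324 of 13945 coding genes. For E2F, Rb and dREAM it was 2 of 13. Of the 21 genes for DNA replication and nucleotide supply without a shared summit, 6 (28.6%) had a gained one, and 5 of these had an E2F site. The background for the shares in this and the later lists is the 3.70% of all coding genes without a shared summit. For E2F sites it is 87 of all 430 genes with a gained summit only. Ts, thymidylate synthase, had a height of 139.4 in the larger set, 119.0 in replicate 1 and 24.3 in replicate 2. Mcm3, a subunit of the replicative helicase, had 125.4 in the larger set, 117.4 in replicate 1 and 13.1 in replicate 2. The region 67 bp upstream of dnk, a kinase of deoxynucleosides, is nearer to Smu1 and had 112.1 in the larger set, 93.8 in replicate 1 and 16.9 in replicate 2. Gnf1, the large subunit of the clamp loader, had 67.7, 45.7 and 16.1 in the same order and was in neither own set. Mcm10 (90.7 and 75.6) and Orc3 (78.2 and 75.7), which act in origin firing and licensing, had a candidate in replicate 1 and none in replicate 2. All 6 were higher in replicate 1 or absent from the own list of replicate 2. Over all 987 gained regions, 561 were higher in replicate 1 and 169 were in its list only, which is the background for this count.

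Of the 25 repair and damage response genes without a shared summit, 8 (32%) had a gained one, 4 of them with an E2F site. Brca2, of homologous recombination (61.9 in replicate 1, 17.8 in replicate 2), Hus1-like, of the checkpoint clamp (45.2, 18.6), and DNAlig4, the ligase of end joining (56.2, 16.8), were in the set of replicate 1 only. So were tos, the exonuclease Exo1 (60.6), and Top2, a topoisomerase (65.4), with no candidate in replicate 2. The gene p53, of the damage response, was in neither set (50.7 in replicate 1, 18.4 in replicate 2). Higher in replicate 2 were mei-9, an endonuclease subunit (26.6 in replicate 1, 63.3 in replicate 2), and lok, the checkpoint kinase Chk2 (30.9, 63.7), whose region also lies at the promoter of barr, a condensin subunit, and overlapped both own sets. For DNAlig4 the gene with the nearest TSS was CG11164. An absent candidate means none in the own list: in the list that compares the replicates, the second input had a height of 8.48 at Orc3, 15.6 at tos and 13.7 at Top2.

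Of the 12 chromatin assembly genes without a shared summit, 3 had a gained one, each in the set of replicate 1 only. These were asf1, a histone chaperone (103.7 in the larger set, 77.0 in replicate 1, 21.1 in replicate 2), Chrac-14, a subunit of a nucleosome remodeller (86.1, 76.0, 12.1), and His3.3A, a replacement histone, which had 2 overlapping regions (91.7 for the higher one, 70.7, 22.4).

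Of the 11 genes for E2F, Rb and dREAM components without a shared summit, 2 (18.2%) had a gained one, E2f1 and Rbf. Of the 27 cyclins, Cdks and their regulators it was 2 (7.41%), CycE and dap. The E2f1 promoter held 1 gained summit 91 bp downstream of a TSS, with a height of 98.5 in the larger set and 65.9 in replicate 1, no candidate in replicate 2 and no E2F site within 100 bp. The inserted transgene encodes E2f1 too, and whether this touches the signal there was not tested. Rbf had 2 gained summits, 406 and 201 bp downstream of a TSS, with heights of 58.0 and 39.5 in the larger set; both overlap 1 candidate of 48.9 in the own list of replicate 1 and none in that of replicate 2, and both windows have an E2F site. CycE, cyclin E, had a gained summit 397 bp upstream of a TSS that was in the set of replicate 2 only (88.9 in the larger set, 16.5 in replicate 1, 75.1 in replicate 2). Its inhibitor dap went the other way (94.9, 73.2, 20.7). Dp had 3 shared summits at the promoter, the highest at 443.3, and no gained one. E2f2, stg, the mitotic phosphatase Cdc25, and RnrL, the large ribonucleotide reductase subunit, had neither, though the own set of replicate 1 had a region at RnrL with a height of 71.5.

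Of the 43 mitosis genes without a shared summit, 4 (9.30%) had a gained one. Besides BubR1 and barr these were cid, the centromeric histone (55.6 in replicate 1, 18.6 in replicate 2), and cal1, its loading factor (49.4, 21.2), both in neither own set. The cell death gene Diap1, a caspase inhibitor, had 31.3 in replicate 1 and 14.98 in replicate 2.

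Of the 40 cytosolic ribosomal protein genes without a shared summit, 6 (15%) had a gained one: RpL35A (83.9 in replicate 1, 19.1 in replicate 2), RpL3 (78.7, 20.6), RpL7-like (61.8, 12.2), RpS30 (56.4, with none in replicate 2), RpLP1 (45.8, 17.7) and RpS15Aa (63.9, 77.5). In the list that compares the replicates, RpS15Aa had heights of 4.21 for its first input and 77.5 for its second, although the own list of replicate 1 has an overlapping candidate of 63.9; the row there thus did not hold the highest overlapping candidate of replicate 1. Of mitochondrial ribosomal protein genes without a shared summit, 3 of 54 (5.56%) had a gained one, namely mRpL37, mRpL44 and mRpS26. Of proteasome genes it was 2 of 40 (5%), Rpn13 and Rpn8. Both shares are near the 3.70% of all coding genes without a shared summit. Of muscle genes it was 2 of 14 (Tm1 and Zasp52), of glycolysis genes 1 of 6 (Ald1) and of Polycomb and trithorax genes 1 of 14 (jing). The last 3 counts are too small to set against that share. None was found at genes without a shared summit for translation factors (40 genes), oxidative phosphorylation (73), embryonic patterning (33) or neuronal function (18). The same held for chemoreceptors (179 genes) and testis and sperm (20 genes). At the 3.70% of all coding genes, most of these lists would hold few such genes.

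**Figure D5:**
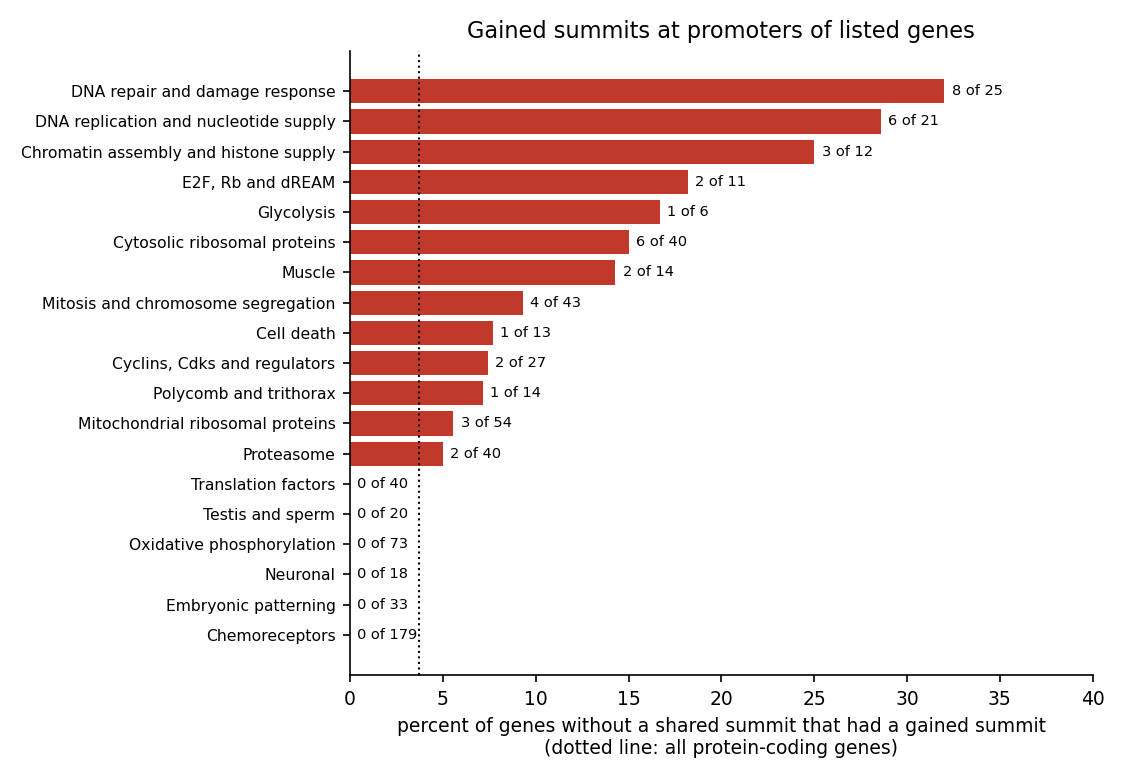
Percent of the genes without a shared summit within 500 bp of a TSS that had a gained one (horizontal) for each of 19 gene lists (rows); the counts stand beside the bars and the dotted line is the 3.70% of all protein-coding genes. Repair, replication and chromatin assembly have 8 of 25, 6 of 21 and 3 of 12.

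The gained share of the larger set was 14.2% on X (136 of 960, interval 12.02 to 16.5) and from 19.3% to 20.9% on the 4 large autosomal arms. On chromosome 4 it was 3 of 8.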

How the data were processed

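E2f1-eGFP ChIP-seq peak files of 2 biological replicates were used, in the dm6 build, per the labels. Which aligner and peak caller were used, and how the larger set was made, is not given in the sources used here. Peak heights are deposited as a score, and the authors' files give −log10 values of a q-like value and of IDR, the latter with a ceiling of 5. No read counts are in these files, so the depth of each library is unknown and intervals cover counting error only. The list that compares the replicates was identified from its inputs: 55.5% of the first recur in the own list of replicate 1 and 53.8% of the second in that of replicate 2, with 0 the other way. The inputs of the larger set's list recur in neither.

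Genes came from the Ensembl annotation, release 115, and sequence from the RefSeq genome of the same build. Location and motif shares of gained and shared regions were compared with Fisher's exact test, two-sided, with Benjamini-Hochberg adjustment within each family and a threshold of 0.05, after a test of the code on simulated data. Intervals are exact 95% (Clopper-Pearson for shares), except those of the logistic regressions with GC content, which are 95% intervals of the fit. Genes named are those nearest to the 12 highest regions, up to 6 members of each list with a gained summit only, and E2f1, Dp, E2f2, Rbf, RnrL, CycE, stg, asf1 and Brca2; others were chosen after their values were seen. Sequences at UTRs were shortened after the windows were set. The members and lists were chosen with earlier results of these data known. Alternatives were other overlap rules, an IDR of 0.001, each replicate's own set alone, a matched height range, promoter distances of 200 and 1000 bp, other motif windows and promoter or other summits. GC content as a covariate, the regions in neither own set, genes with no conservative summit, and 1 region per overlapping group were added after the data were seen. The code ran in Python 3.11.15, with the tests from scipy 1.17.1 and statsmodels 0.14.6, tables from pandas 2.3.3 and numpy 2.4.6, and figures from matplotlib 3.10.9.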

Additional observations from a re-analysis of the deposited data

How the results depend on the processing

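No paired analysis was possible because the samples form 1 group. The number of gained regions was 1114 with either other overlap rule and 201 at an IDR of 0.001. In the own set of replicate 2, 296 regions overlapped no conservative region, and in that of replicate 1 it was 631. These sets are smaller by construction and are not the gained regions themselves. The conservative set rests on both replicates, so neither replicate was left out in full. The genes with a gained summit only numbered 124 at that IDR. With the own sets split in this way, the count was 113 in replicate 2 and 333 in replicate 1. The splits of the 2 own sets gave odds ratios of 0.594 to 1.34 for promoters, 0.802 to 1.49 for introns, 3.01 to 13.3 for coding exons and 0.552 to 2.23 for E2F sites. For promoters, introns and E2F sites these lie on both sides of 1. In regions of neither own set the odds ratio by Fisher's exact test was 0.728 for promoters (adjusted p = 0.00932), 8.71 for coding exons (adjusted p = 2.561e-07) and 1.56 for E2F sites (adjusted p = 0.0522). For coding exons it was 2.04 at an IDR of 0.001, with 1 region. With GC content as a covariate that for E2F sites was 1.03. The share of gained regions in the set of replicate 1 was 39.3% with summits within 100 bp and 82.1% at an IDR of 0.001, and in that of replicate 2 it was 20.9% at that IDR. Intergenic and DRE shares stayed on the same side of the threshold under all alternatives run. Both other overlap rules gave the same regions because 4049 shared regions have an identical record in the conservative set and the other 127 have summits 199 bp or more from any conservative summit.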

Other observations

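Transposable elements held 7 gained summits (0.709%) and 12 shared ones (0.287%). A further 351 regions of the conservative set overlapped no region of the larger set. The coding exon region near cact was 86 bp wide, with a height of 131.4 in the larger set and 83.0 in replicate 1, no candidate in replicate 2 and an E2F site centred 13 bp from the summit; it was named after its values were seen.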
